A study of Arabidopsis thaliana with 2 samples.

Results

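Transcripts of genes carried on the plastid genome were examined in shoots of Arabidopsis thaliana seedlings aged 14 days. They were chosen as every probe set (the group of short probes that reads 1 transcript) that the platform annotation assigns to exactly 1 gene of the plastid genome. This gave 69 probe sets for 69 protein-coding genes, out of 13286 genes with a probe set named for 1 gene and 22810 probe sets on the array. They were grouped by symbol into photosystem I (psa, 5 genes), photosystem II (psb, 15), cytochrome b6f (pet, 6), ATP synthase (atp, 6), the NDH complex (ndh, 10), the Rubisco large subunit (rbcL, 1), ribosomal proteins of the small and large subunit (rps, 8, and rpl, 7), RNA polymerase (rpo, 4) and 7 others. A further 8 plastid probe sets list 2 gene records each and fall outside this rule, and their values are given apart.

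The study compared 1 array of GFP-TIE1-15, a single line carrying a GFP-TIE1 transgene, with 1 array of Columbia-0 wild type. The promoter of the transgene and the number of seedlings pooled are not given in the sources used here. All seeds were chilled at 4 °C for 3 days and grown on plates at 22 °C in long days, 16 h light to 8 h dark. TIE1 is known as a protein that links TCP transcription factors of leaf development to TOPLESS corepressors, and the comparison asks which transcripts differ in shoots of the line. TIE1 itself had no named probe set, so the transgene was not checked.

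The plastid genome descends from that of a cyanobacterium and keeps genes for the core of the photosynthetic complexes and for part of the machinery that transcribes and translates them. Most lie in operons, which are transcribed as long precursors and then cut into smaller RNAs. Transcription is shared by a plastid-encoded bacterial-type polymerase, known for photosynthesis genes, and a nuclear-encoded phage-type polymerase, known for housekeeping genes. Most plastid transcripts carry no stable poly(A) tail, and the labelling of standard Affymetrix protocols starts from that tail. How this acted on the signals was not tested.

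Photosynthesis genes of the plastid were mostly slightly lower in GFP-TIE1-15 than in wild type, and genes of the plastid ribosome and RNA polymerase mostly slightly higher. The values are probe set signals as deposited, and each log2 ratio sets GFP-TIE1-15 over wild type on the log2(signal + 50.0) scale, which understates the difference of dim genes. Of the 69 genes, 67 were measured, meaning that the brighter array reached a signal of 200.02. The bacterial-type polymerase subunit gene rpoB (63.7 in GFP-TIE1-15 and 54.5 in wild type) and the NDH subunit gene ndhF (29.6 in GFP-TIE1-15 and 48.9 in wild type) were not. Of the 67, rps14 and ndhH reached the minimum in wild type only, so the filter fixed their place below 0. With 1 array per genotype there is no test, no error and no replicate check of any difference below, and the number of arrays limits the precision of every value. In whole shoots, fewer green cells and less plastid RNA per cell cannot be told apart.

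None of the 67 measured genes differed by a log2 ratio of 1 in either direction, against 3.59% of all 11308 measured probe sets, 1.2% higher and 2.39% lower in GFP-TIE1-15. At a log2 ratio of 0.5 there were 2 genes, which is 2.99% against 18.8% of all measured probe sets. rpoC2 was the 1 gene above, against 9.72% of all measured probe sets, and psbB the 1 gene below, against 9.05%. Among the 3525 measured probe sets with a mean signal of at least 1000.09 the share was 17.3%. The spread of log2 ratios, as a robust SD (the median absolute deviation scaled to an SD), was 0.27 among the plastid genes, 0.33 among those brighter probe sets and 0.33 among all measured ones. The local SD is the robust SD over the 500 probe sets nearest in signal. rpoC2 was the 1 gene that lay more than 2 local SDs from the median of those neighbours, against 10.8% of all measured probe sets, and no gene lay more than 3 from it, against 3.67% of all measured probe sets. Fewer of the plastid genes passed either size than of the array at large.

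Over all 67 the median log2 ratio was -0.08, from -0.52 to 0.63, beside 0.01 over all measured probe sets. It lay above 0 in 26 and below 0 in 41, while 51.5% of all measured probe sets lay above 0 and 48.5% below. Divided by role, 34 of the 42 measured photosynthesis genes were below 0, with a median of -0.15, and 16 of the 18 genes of gene expression were above 0, with a median of 0.19. After quantile normalization 28 of the 42 photosynthesis genes were below 0, and after division by the array medians 14 of the 18 gene expression genes were above 0. In all, 56 of the 67 stayed on their side of 0 under quantile normalization, median scaling and removal of a loess trend. The 11 that did not were psbA, psbM, psaB, psaJ, atpB, ndhC, ndhI, rps4, rpl33, rpl36 and clpP. Across all 69 genes the log2 signals on the arrays correlated with a Pearson's r of 0.993, across genes that share both arrays. Across all measured probe sets it was 0.946. The sets are unlike, since the 69 include the unmeasured rpoB and ndhF, and r depends on the range of signals in each.

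**Figure D1:**
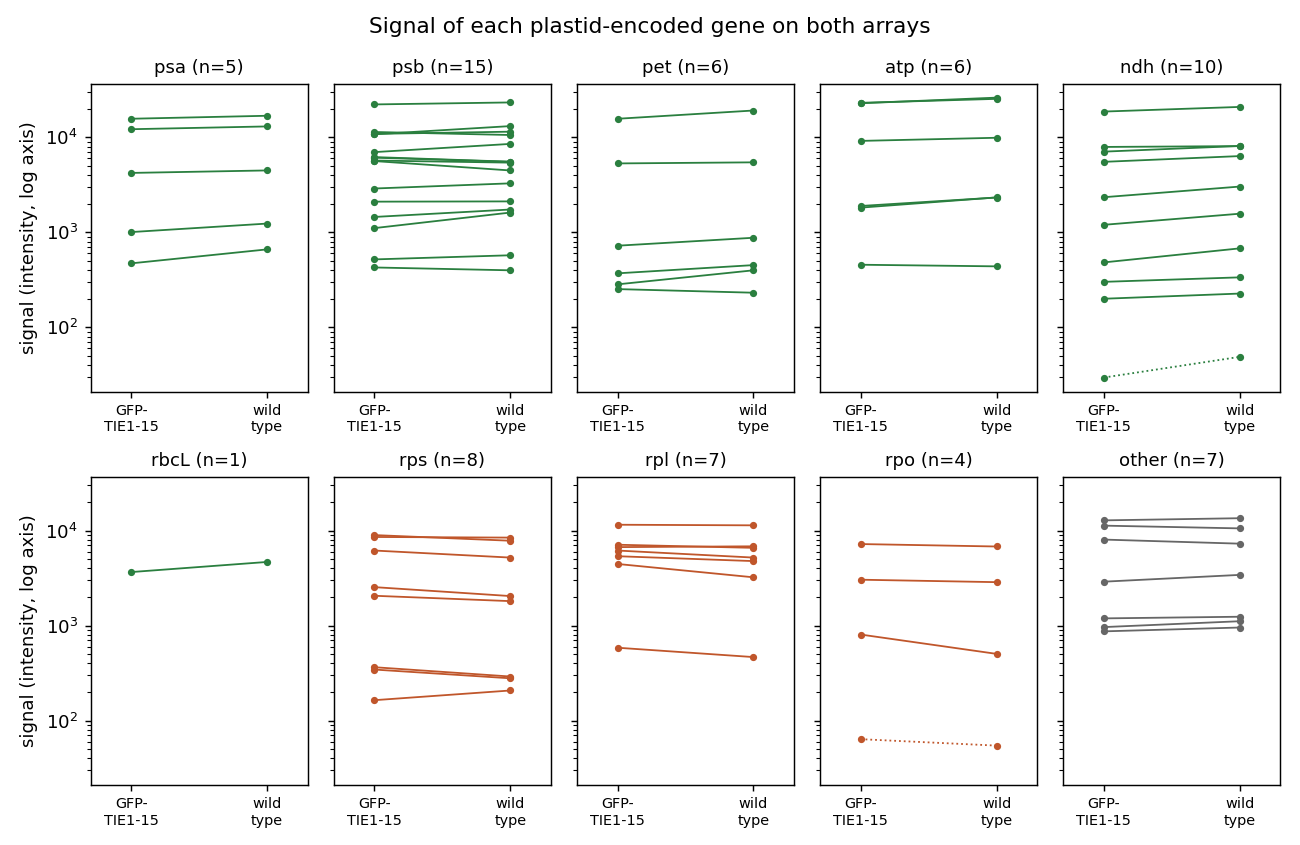
Signal of each of the 69 plastid-encoded genes on the GFP-TIE1-15 array (left) and the wild-type array (right), in intensity units on a log axis, with 1 panel per gene group and 1 line per gene. Dotted lines are rpoB and ndhF, below the minimum on both arrays, and most lines are nearly level, with signals from 164 to 23144 in GFP-TIE1-15 and from 207.4 to 26239 in wild type among measured genes.

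**Figure D2:**
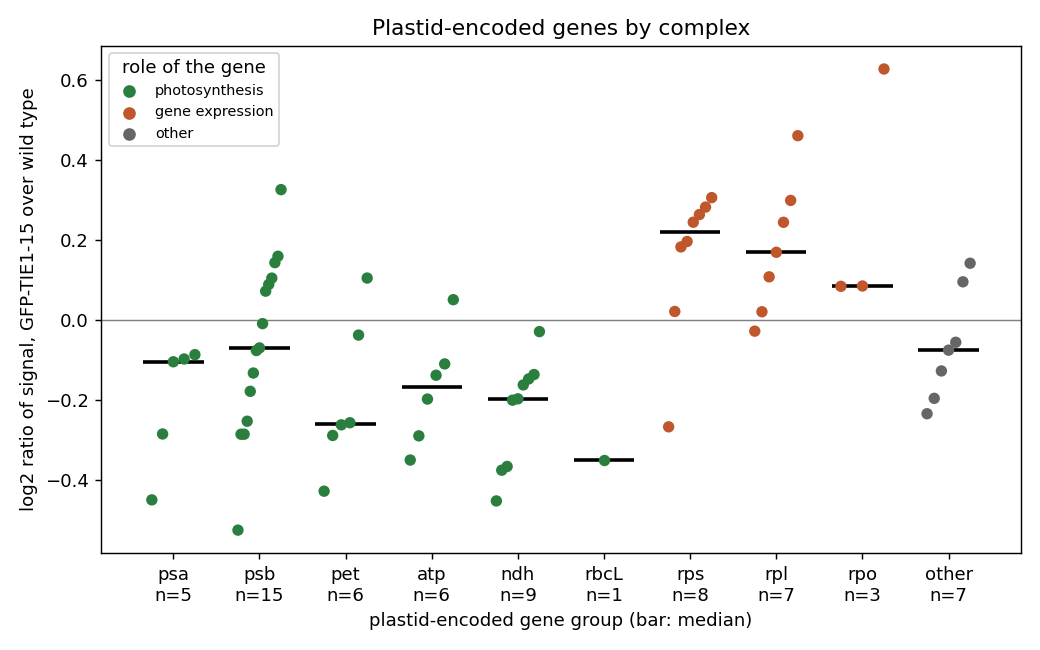
Log2 ratio (GFP-TIE1-15 divided by wild type) for the 67 measured genes by gene group, with the median as a bar and colours for the role of the gene. The medians of psa, psb, pet, atp, ndh and rbcL lie below 0 (psb at 0.01 after quantile normalization), and those of rps, rpl and rpo above 0.

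All 5 photosystem I genes were lower in GFP-TIE1-15 as deposited, with a median log2 ratio of -0.10. The lowest was psaC (244932_at), which encodes the subunit that holds the terminal iron-sulphur clusters. It had 471.8 in GFP-TIE1-15 and 662.1 in wild type, a log2 ratio of -0.45. The reaction centre gene psaA (245007_at) had 1007.5 in GFP-TIE1-15 and 1237.8 in wild type (-0.28). Its partner psaB (245006_at), with which it forms the reaction centre heterodimer, had 15724 in GFP-TIE1-15 and 16904 in wild type (-0.10). The small subunit gene psaJ had 12199 in GFP-TIE1-15 and 13052 in wild type (-0.10), and psaI had 4227 in GFP-TIE1-15 and 4491 in wild type (-0.09). After quantile normalization psaB and psaJ lay at 0.07 and 0.01, while psaC, psaA and psaI stayed below 0 under each scaling.

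Photosystem II was the most mixed of the photosynthetic complexes, with 9 of 15 genes below 0 and 6 above. Its median of -0.07 became 0.01 after quantile normalization. The antenna protein gene psbB (244972_at), for CP47, had 1109 in GFP-TIE1-15 and 1617 in wild type, a log2 ratio of -0.52 and the lowest of all measured plastid genes. With the pseudocount raised to 25% of the arrays' trimmed mean, it no longer reached 0.5. The other inner antenna gene, psbC (245003_at), for CP43, had 5635 in GFP-TIE1-15 and 4487 in wild type (0.33), the highest of the group. Between the reaction centre genes, psbD (245002_at), for D2, had 1453 in GFP-TIE1-15 and 1741 in wild type (-0.25). The D1 gene psbA (245047_at), known for rapid turnover of its protein in the light, had 10896 in GFP-TIE1-15 and 11489 in wild type (-0.08). The 4 core genes thus ran in both directions, and psbA changed side with the scaling.

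Of the 11 small photosystem II genes, 6 were below 0 and 5 above, with a median of -0.01. Both cytochrome b559 genes were low to the same extent. For psbE (244964_at) the signals were 7002 in GFP-TIE1-15 and 8542 in wild type, and for psbF (244963_at) they were 10790 in GFP-TIE1-15 and 13156 in wild type, each a log2 ratio of -0.28. psbH, for a phosphoprotein beside CP47, had 2897 in GFP-TIE1-15 and 3283 in wild type (-0.18), and psbT had 519.2 in GFP-TIE1-15 and 573.8 in wild type (-0.13). The log2 ratio was -0.07 for psbM, which was bright on both arrays at 22253 in GFP-TIE1-15 and 23354 in wild type, and -0.01 for psbL. The other 5 were above 0. psbZ had 6204 in GFP-TIE1-15 and 5551 in wild type (0.16), and psbI had 6119 in GFP-TIE1-15 and 5536 in wild type (0.14). psbK had 11405 in GFP-TIE1-15 and 10603 in wild type (0.10), and psbJ was at 0.07. psbN, an assembly factor gene on the opposite strand of the psbB operon, had 427.0 in GFP-TIE1-15 and 398.5 in wild type (0.09).

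Cytochrome b6f, which passes electrons between the photosystems, had 5 of 6 genes below 0 and a median of -0.26. The lowest was petN (245000_at), for a small subunit, with 283.6 in GFP-TIE1-15 and 398.5 in wild type (-0.43). petB (244976_at), for cytochrome b6, had 15716 in GFP-TIE1-15 and 19197 in wild type (-0.29). The small subunit genes petL, with 723.8 in GFP-TIE1-15 and 877.5 in wild type, and petG, with 370.4 in GFP-TIE1-15 and 452.1 in wild type, lay close together at -0.26 each. petA (245020_at), for cytochrome f, had 5322 in GFP-TIE1-15 and 5464 in wild type (-0.04). petD (244977_at), for subunit IV, was above 0, with 252.7 in GFP-TIE1-15 and 231.5 in wild type (0.10). None of the 6 changed side of 0 with the scaling.

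The ATP synthase genes were also below 0 in 5 of 6 cases, with a median of -0.17. Lowest were atpH and atpF. atpH (245026_at), for the ring subunit c, had 1822 in GFP-TIE1-15 and 2335 in wild type (-0.35), and atpF (245025_at), for stator subunit b, had 1897 in GFP-TIE1-15 and 2328 in wild type (-0.29). The catalytic head genes were closer to 0. atpA (245024_at) had 9189 in GFP-TIE1-15 and 9916 in wild type (-0.11), and atpB (245014_at) had 23145 in GFP-TIE1-15 and 25468 in wild type (-0.14). After quantile normalization atpB was at 0.01. atpE (245013_at), for the epsilon subunit, had 22882 in GFP-TIE1-15 and 26239 in wild type (-0.20), and atpI (244995_at), for subunit a, had 456.2 in GFP-TIE1-15 and 438.7 in wild type (0.05).

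All 9 measured NDH genes were below 0 as deposited, with a median of -0.20, though the filter fixed the side of ndhH. NDH drives cyclic electron flow around photosystem I. The lowest was ndhE (244933_at), with 482.8 in GFP-TIE1-15 and 678.5 in wild type (-0.45). ndhK (245011_at) had 1201 in GFP-TIE1-15 and 1572 in wild type (-0.37), and ndhJ (245010_at) had 2346 in GFP-TIE1-15 and 3036 in wild type (-0.37). The other 6 lay between -0.20 and -0.03. Among them ndhI (244935_at), the brightest NDH probe set, had 18717 in GFP-TIE1-15 and 20944 in wild type (-0.16), and lay at 0.07 after quantile normalization. ndhC (245012_at) was highest at -0.03, and at 0.02 with the loess trend removed, and ndhH sat at the brightness minimum with 200.0 in GFP-TIE1-15 and 226.8 in wild type (-0.15). The unmeasured ndhF was far below the minimum on both arrays, so its direction is not read. rbcL (245015_at), for the large subunit of the carbon-fixing enzyme Rubisco, had 3665 in GFP-TIE1-15 and 4683 in wild type, a log2 ratio of -0.35.

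Ribosomal protein genes lay on the other side. Of 8 rps genes, 7 were above 0, with a median of 0.22. rps18 (244969_at) was highest, with 2543 in GFP-TIE1-15 and 2048 in wild type (0.31). rps15 had 364.7 in GFP-TIE1-15 and 291.1 in wild type (0.28), and rps16 had 344.6 in GFP-TIE1-15 and 278.8 in wild type (0.26). rps19 (0.24), rps3 (0.20) and rps2 (0.18) followed, while rps4, with 8578 in GFP-TIE1-15 and 8451 in wild type, was at 0.02, and at -0.01 with median scaling. rps14 (245005_at) was the exception, with 164 in GFP-TIE1-15 and 207.4 in wild type (-0.27), a dim gene whose sign the filter fixed. rps3 (244984_at), the brightest probe set of the group in GFP-TIE1-15, had 8983 in GFP-TIE1-15 and 7835 in wild type.

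Of 7 rpl genes, 6 were above 0, with a median of 0.17. rpl16 (244983_at) had 4458 in GFP-TIE1-15 and 3227 in wild type (0.46), and rpl20 (244970_at) had 585.1 in GFP-TIE1-15 and 466.4 in wild type (0.30). rpl14 had 6175 in GFP-TIE1-15 and 5207 in wild type (0.24), and rps19 had 6175.7 in GFP-TIE1-15 and 5206.5 in wild type, so these different genes and probe sets matched to within 1 signal unit on each array. rpl32 was at 0.17 and rpl22 at 0.11. rpl33 (244968_at), the brightest probe set, had 11544 in GFP-TIE1-15 and 11379 in wild type (0.02), and rpl36 (244980_at) had 6710 in GFP-TIE1-15 and 6841 in wild type (-0.03). With median scaling rpl33 was at -0.01, and with the loess trend removed rpl36 was at 0.01.

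The RNA polymerase genes were above 0 in all 3 measured cases under each scaling, with a median of 0.09. rpoC2 (244997_at), for the beta'' subunit, had 805.2 in GFP-TIE1-15 and 504 in wild type, a log2 ratio of 0.63 and the highest of the measured plastid genes. rpoC1 (244998_at), for beta', had 3044 in GFP-TIE1-15 and 2869 in wild type (0.08), and rpoA (244978_at), for alpha, had 7227 in GFP-TIE1-15 and 6811 in wild type, at 0.09. rpoC2 thus lay well above the other measured subunits, both of them close to 0.

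The 7 other genes had a median of -0.08, with 5 below 0 and 2 above. cemA, for an envelope membrane protein, had 2903 in GFP-TIE1-15 and 3422 in wild type (-0.23). accD, for the plastid-encoded subunit of acetyl-CoA carboxylase in fatty acid synthesis, had 965.2 in GFP-TIE1-15 and 1112.4 in wild type (-0.20). The photosystem I assembly factor genes ycf4 and ycf3 were at -0.13 and -0.06, and clpP, for the proteolytic subunit of the Clp protease, had the brightest probe set of these, at 12836 in GFP-TIE1-15 and 13525 in wild type (-0.08). Above 0 were the maturase gene matK, needed for intron splicing, with 8055 in GFP-TIE1-15 and 7297 in wild type (0.14), and ccsA, for cytochrome c assembly, at 0.10.

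**Figure D3:**
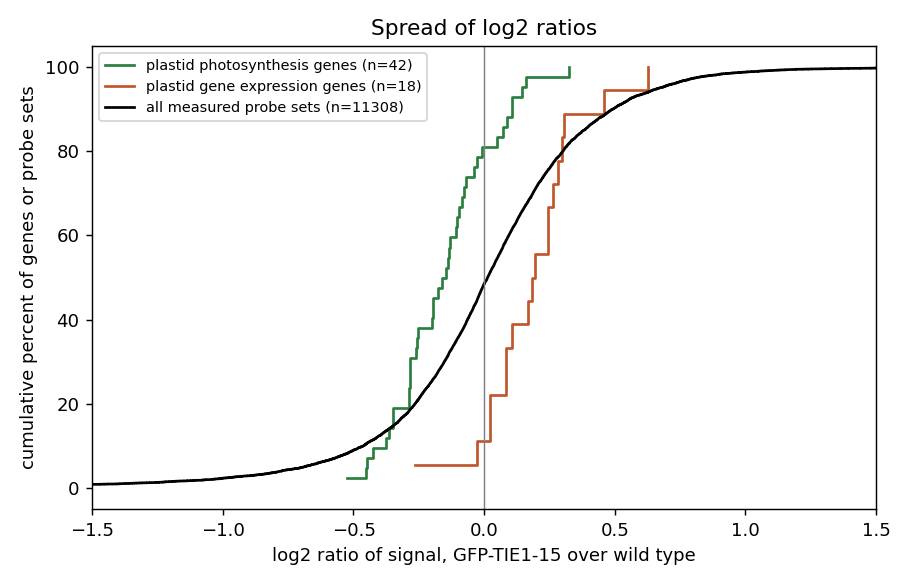
Cumulative percent of genes or probe sets by log2 ratio (GFP-TIE1-15 divided by wild type), for 42 plastid photosynthesis genes, 18 plastid gene expression genes and all 11308 measured probe sets, with the axis limited to 1.5 in either direction. The photosynthesis curve lies to the left of the gene expression curve over most of its course, and both are steeper than that of all probe sets.

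Of the 8 plastid probe sets outside the rule, which list both copies of a gene in the inverted repeat or both records of the split gene rps12, 6 were measured. The ribosomal genes among them did not all lie above 0. rpl2 had 16171 in GFP-TIE1-15 and 18466 in wild type (-0.19), rpl23 had 6138 in GFP-TIE1-15 and 6565 in wild type (-0.10), and rps7 was at -0.03. The rps12 probe sets were at 0.31 and 0.04. With these 5 included, 18 of 23 measured gene expression probe sets were above 0 and their median was 0.17. ycf1 had 3716 in GFP-TIE1-15 and 2275 in wild type, a log2 ratio of 0.70, above that of every gene inside the rule.

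Operon by operon, neighbours mostly lay on the same side of 0. Of the 4 measured pairs in which a ribosomal gene stands directly beside a photosynthesis gene of its operon, 2 lay on opposite sides of 0 (psaJ with rpl33, and ndhH with rps15) and 2 on the same side (atpI with rps2, and psaB with rps14). The filter fixed ndhH and rps14 below 0, as they reached the minimum in wild type only. psaJ, rpl33 and psaB each changed side of 0 under another scaling. Operons were listed from textbook knowledge with no check of strand, and 15 of those listed had at least 2 measured genes. The list pairs ccsA (0.10) with ndhD (-0.20) and sets ndhD apart from its neighbour psaC (-0.45). Neither choice was checked, and both enter the counts and medians that follow. Among 38 pairs of neighbouring measured genes in 1 listed operon, 31 were on the same side of 0 and their log2 ratios differed by a median of 0.15. Among 23 neighbouring pairs not in 1 listed operon, 15 were on the same side and the median difference was 0.21. Several pairs were nearly equal, as psbF and psbE, petL and petG, psaC and ndhE, and ndhJ and ndhK, each less than 0.01 apart. These pairs share 2 arrays and often a complex, so the figures are a description.

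Both kinds of gene were measured in 4 operons, which held ribosomal and photosynthesis genes together. In the operon listed from psaC to rps15, the 6 photosynthesis genes lay between -0.45 and -0.14, whereas rps15 at the end lay at 0.28. The ndhD gene beside psaC, which the list sets apart from this operon, lay at -0.20. In the petL operon, petL, petG and psaJ lay between -0.26 and -0.10, and rpl33 and rps18 at 0.02 and 0.31. In the rps2-atpA operon, rps2 at 0.18 was above all 4 atp genes, of which atpI, next to it, was at 0.05 and the others between -0.35 and -0.11. The psaA operon differed, since rps14 (-0.27), which the filter fixed below 0, lay between psaA (-0.28) and psaB (-0.10). Ribosomal genes were thus above the photosynthesis genes of their operon in 3 of 4 cases, and in the petL operon after quantile normalization the median over its 5 genes was 0.01, against -0.10 as deposited.

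In the other listed operons, the largest difference was between neighbours psbD and psbC, 0.58 apart, although their coding regions overlap, and psbZ beyond them was at 0.16. In the psbB operon, psbB was lowest, psbT, psbH and petB lay between -0.29 and -0.13, and petD at the far end was above 0, 0.39 above petB. All 5 genes of the accD-petA operon, all 3 of the ndhC operon and both of the atpB operon were below 0, and psbK and psbI were both above. In the rpl23 operon 7 of 11 genes were measured members, and 6 of them, all but rpl36, were above 0, with a median of 0.20. Its first genes, rpl23 (-0.10) and rpl2 (-0.19), are read by probe sets outside the rule and lay below 0, so that 6 of 9 measured genes of the operon were above 0 and 3 below. In the rpoB operon, rpoC2 and rpoC1 were 0.54 apart.

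**Figure D4:**
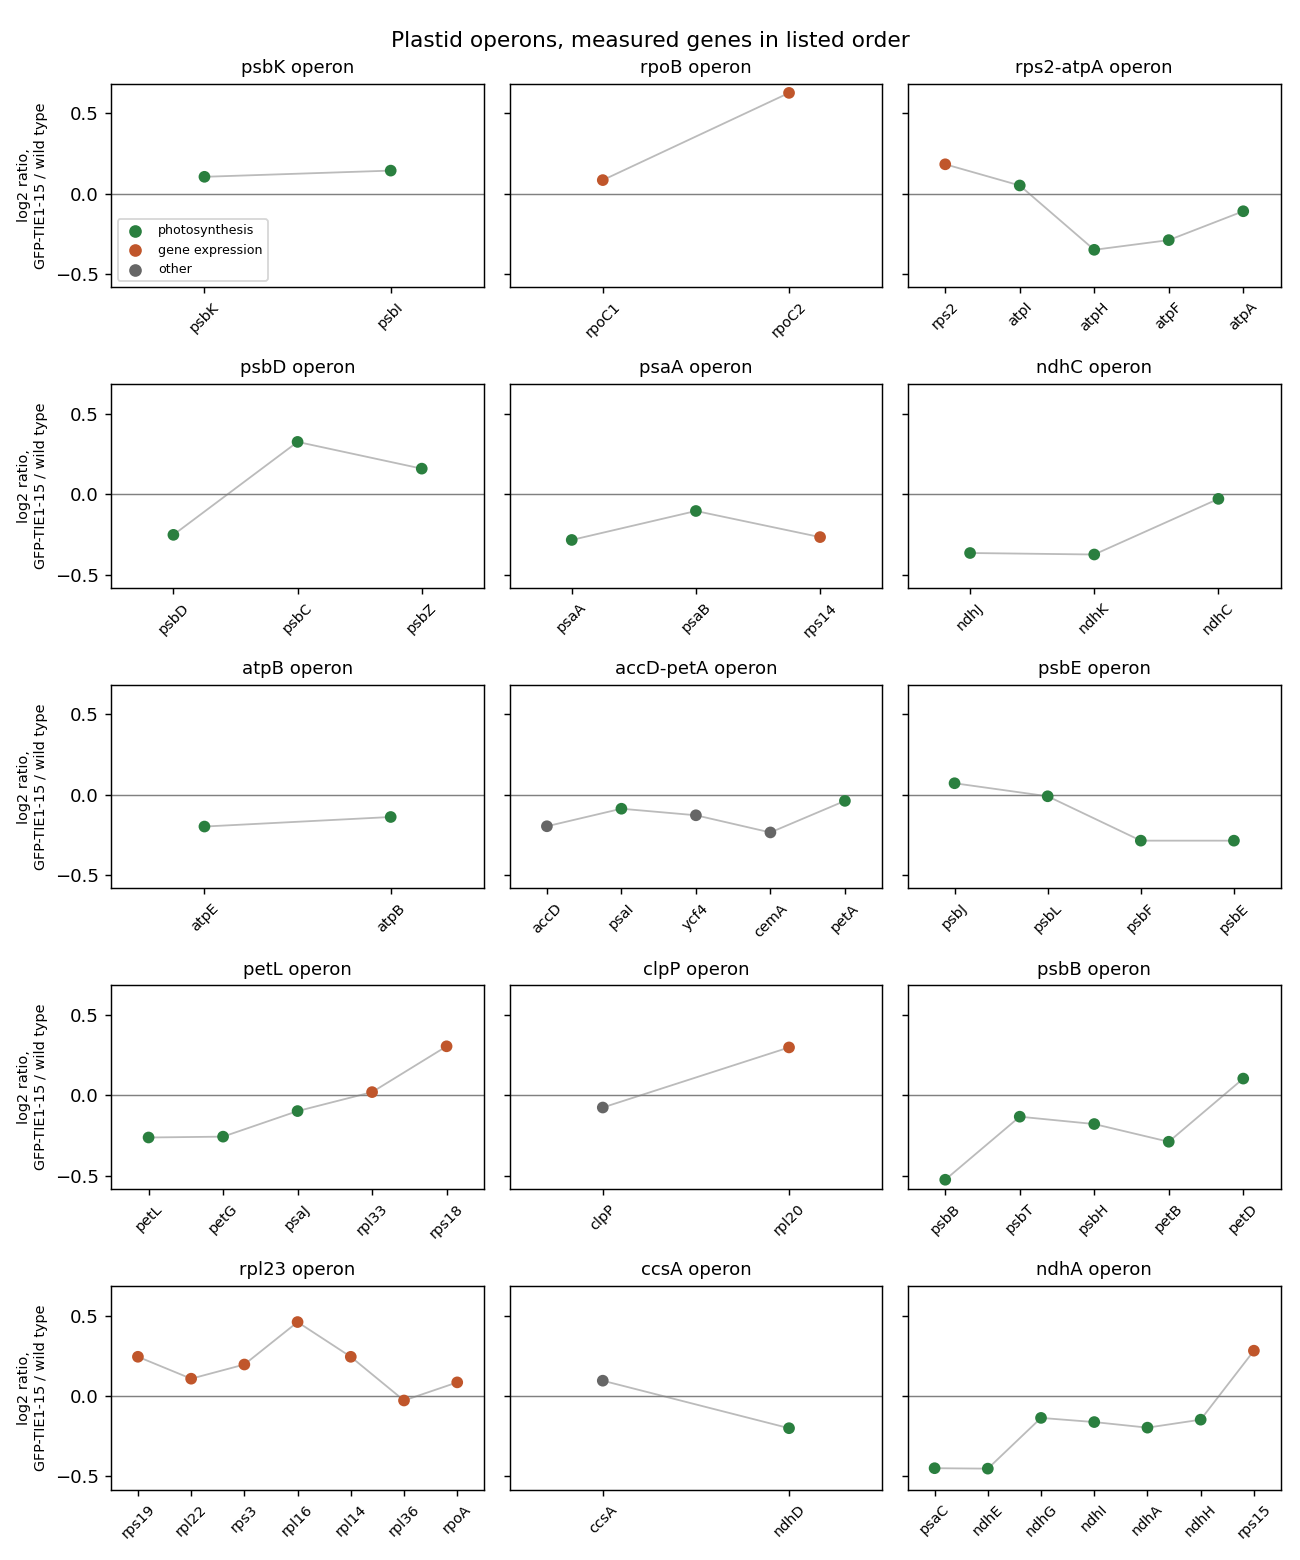
Log2 ratio (GFP-TIE1-15 divided by wild type) for measured genes of 15 listed plastid operons, with colours for the role of the gene. Genes are in their order along the genome in one direction or the other. Strand was not checked, including for the listed pair of ccsA and ndhD. Ribosomal genes (orange) lie above the photosynthesis genes (green) in the rps2-atpA, petL and ndhA operons. They do not in the psaA operon, where the filter fixed rps14 below 0.

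Genes known, largely from work in tobacco, to depend on the plastid-encoded polymerase were all below 0, 8 of 8, with a median of -0.28 from psbB at -0.52 to psbA at -0.08, with psbA at 0.01 after quantile normalization. These were psbA, psbD, psbB, psbE, psaA, rbcL, petB and ndhA. All 8 are photosynthesis genes, of which 34 of 42 measured lay below 0, so the count is near that of the wider class. Of the genes known there for the nuclear-encoded polymerase, 3 were measured members, with rpoC2 and rpoC1 above 0 and accD below. The 9 members with introns had a median of -0.06, with 4 above 0 and 5 below, against -0.09 for the 58 without. Across the 67 genes the log2 ratio and the mean signal were hardly related, with a Pearson's r of 0.065 and a Spearman's rho of 0.075, across genes that share both arrays. This does not cover the trend with signal over all probe sets. The bright genes psaB, psaJ and psbM lay -0.04, -0.02 and 0.07 local SDs from the median of their neighbours in signal. petB and psbF, also bright, lay -0.64 and -0.63 from it.

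Few nuclear genes that supply the same complexes had a named probe set. Each of those that did was measured and lower in GFP-TIE1-15 as deposited. Their side of 0 under other scalings was not checked. The plastid gene ndhI, about as bright as PSAE-1, moved from -0.16 to 0.07 after quantile normalization. Of 12 listed photosystem I genes, 2 had one, PSAE-1 at -0.17 and PSAN at -0.43. Of 10 for photosystem II, 2 had one, PSBW at -0.30 and PSBY at -0.39. ATPC1, for the gamma subunit of ATP synthase, was the only one of 3, at -0.16. Of 5 NDH genes, NdhS (-0.41), NdhL (-0.57) and NdhN had one, and NdhN had 1169 in GFP-TIE1-15 and 2371 in wild type (-0.99). No listed nuclear gene for cytochrome b6f with its electron carriers, the Rubisco small subunit or plastid RNA stability had a named probe set, which does not mean that the array lacks them. The same held for 18 of 19 genes of the plastid transcription machinery, and the remaining one, the phage-type polymerase gene AT5G15700, was below the minimum with 147.6 in GFP-TIE1-15 and 85.6 in wild type. Of 11 mitochondrion-encoded genes with a named probe set, cox1 and nad4 alone were measured, at 0.14 and 0.31.

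The labelled tissue was checked with leaf and root markers. The leaf genes LHCB4.1 (20353 in GFP-TIE1-15 and 25525 in wild type, -0.33) and RCA (16628 in GFP-TIE1-15 and 21195 in wild type, -0.35) were bright on both arrays. The root hair genes EXPA7 (3.8 in GFP-TIE1-15 and 30.1 in wild type) and EXPA18 (44.3 in GFP-TIE1-15 and 62.3 in wild type) were below the minimum, while PYK10, known from roots, had 5954 in GFP-TIE1-15 and 6746 in wild type. Both leaf markers were lower in GFP-TIE1-15 as deposited, as were most plastid photosynthesis genes, and the part of tissue makeup in this was not tested.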

How the data were processed

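RNA of 1 GFP-TIE1-15 and 1 wild-type sample was hybridised to 1 Affymetrix array each. GCOS 1.0 and MAS5 are named in the submitters' processing notes. The deposited values are probe set intensities on a linear scale. Both arrays had a trimmed mean of 500.05 (2% of values removed from either end), so they were taken as scaled by the authors and used as deposited. The scaling target and detection calls are not given in the sources used here. Probe sets were joined to the TAIR10.1 RefSeq gene table by gene ID, and mitochondrial ones by symbol. All 69 members matched. The pseudocount was 10% and the brightness minimum 40% of the trimmed mean. Both size rules, log2 ratios of 1 and 0.5, are descriptive. Every member could be named; of other lists, up to 3 genes. Members and lists were chosen with earlier results of these data known, and the intron list and the small-subunit list after the values were seen. The gene table gives no strand, so neighbours were divided by operon instead of by strand. The summaries were tested on simulated data. Alternatives were other scalings, pseudocounts and minimums, removal of shared probe sets and the mean in place of the median. Computation used Python 3.11.15 with matplotlib 3.10.9 for figures, statsmodels 0.14.6 for loess, scipy 1.17.1 for correlations, and pandas 2.3.3 and numpy 2.4.6.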

Additional observations from a re-analysis of the deposited data

How the results depend on the processing

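No paired analysis was possible because GFP-TIE1-15 and wild type had 1 array each, and no replicate could be left out. Of 265 recomputed medians over all members, gene groups and operons, all moved by less than the local SD and 2 crossed 0, both with quantile normalization, for psb (0.01) and the petL operon (0.01). The local SD is a loose limit, since it exceeds most of these medians. For all members it was 0.31, against a median of -0.08. The photosynthesis median ranged from -0.18 to -0.12 and that of the gene expression genes from 0.16 to 0.21. At a log2 ratio of 0.5, 0 genes were lower with the pseudocount at 25% of the arrays' trimmed mean, since psbB fell short, against 1, and 2 probe sets were higher once those of the inverted repeat were added, against 1; that addition was chosen after seeing the data. No member was beyond 3 local SDs, against 3.67% of all measured probe sets. No member has a probe set marked as shared, so removing those tested nothing here. Dim genes such as rps14, ndhH and petD are limited by signal over background.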
